A study of Mus musculus with 18 samples.

Results

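Expression of 10 receptor tyrosine kinase genes other than EGFR (Met, Mst1r, Axl, Mertk, Igf1r, Insr, Fgfr1, Fgfr2, Fgfr3 and Epha2) was followed across 18 mouse lung cultures. The genes were chosen by name, as receptors known to carry growth signals when EGFR is inhibited in EGFR-mutant lung cancer, and each matched 1 of the 46603 genes measured in every culture. The mice carried the human EGFR gene with the T790M and L858R changes at 1 Col1a1 locus, behind a lox-stop-lox cassette and the ubiquitous CAG promoter, and the strain of these mice and their age in weeks are not given in the sources used here, where the mice given Ad-Cre in the lung are described as adult. Sorted tracheal cells (NGFR-negative cells, labelled club, and NGFR-positive basal cells) and distal lung cells (Sca1-negative AT2 cells and Sca1-positive bronchioalveolar stem cells, BASCs) were split and given adenovirus with GFP as the control (Ad-GFP) or with Cre, which activates the transgene (Ad-Cre). This gave 8 organoid cultures, 1 for each population and virus. Another 2 Ad-Cre organoid cultures were BASC subclones picked by their look as alveolar or bronchiolar, while the unpicked BASC cultures are called mixed. The 8 tumoroid cultures came from Ad-Cre cells after growth in the lungs of nude mice (3 from AT2 cells, 3 from mixed BASCs and 1 from bronchiolar BASCs) or from a tumor that arose in the mouse's own lung after Ad-Cre (autochthonous, 1 culture). The AT2 tumoroids are also labelled as sorted NGFR-negative, a mark of the tracheal sort elsewhere in the series, and were kept under their AT2 label. Some tumoroids carry the same number in their labels, namely AT2 tumoroids 2 and 3, and mixed BASC tumoroids 2 and 3 with the bronchiolar BASC tumoroid, and may not be independent. All cultures were grown in Matrigel mixed with supporting lung mesenchymal endothelial cells.

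A receptor tyrosine kinase spans the cell membrane, and binding of its ligand brings receptors together so that their kinase domains phosphorylate each other and recruit adaptors of the RAS-ERK and PI3K-AKT pathways. EGFR feeds the same pathways, which is why another active receptor can replace it. In the lung, FGFR2 in the epithelium receives FGF7 and FGF10 from the mesenchyme and is needed for branching and for AT2 cells, MET receives hepatocyte growth factor from mesenchymal cells, and AXL is often linked to a mesenchymal state.

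Each culture gave 1 library, so cultures of different populations, and of a population with either virus, stood in for replicates. Total expected counts ran from 27772660 to 97191624 in the 10 organoid libraries and from 15327265 to 23355938 in the 8 tumoroid libraries. TPM, an abundance scaled for gene length and library size, is used for levels and to compare genes, and CPM, a count scaled to library size by the TMM method, for tests. The labels were checked against marker genes. The surfactant gene Sftpc ran from 60435 to 61211 TPM in the 3 alveolar organoid cultures (AT2 with either virus and alveolar BASC) and from 3.17 to 347 TPM in the 5 airway ones (the 4 tracheal cultures and bronchiolar BASC). The tracheal cultures sorted as NGFR-negative were not lower in summed basal markers (4076 and 3719 TPM with Ad-GFP and Ad-Cre) than the basal ones (3435 and 3035). Krt5 ran from 1549 to 2063 TPM over all 4 tracheal cultures, and the club marker Scgb1a1 from 7.03 to 18.4 TPM. The summed TPM of the club markers was higher in the NGFR-negative cultures (8616 and 8028) than in the basal ones (5832 and 4429). The summed TPM of 10 fibroblast markers ran from 873 to 1709 in airway organoids, from 2181 to 4005 in alveolar organoids and from 202 to 4676 in transplant tumoroids. The defining endothelial marker Cdh5 did not exceed 0.08 TPM, the pan-leukocyte marker Ptprc did not exceed 0.91 TPM and the fibroblast marker Tcf21 did not exceed 0.06 TPM in any culture.

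Promoter windows of RefSeq (GRCm38.p6, the 250 bases before a transcription start) were found for 8 of the 10 genes, with no entry for Insr and Fgfr1. Windows of 4 genes are shown here, with annotated exon bases next to the transcription start left out. They were chosen because, of the 8 genes with a window, they separated airway from alveolar cultures most widely. Mst1r (chr9:107906773-107906872, plus strand) and Fgfr3 (chr5:33721574-33721673, plus) were higher in airway cultures, and Mertk (chr2:128698815-128698914, plus) and Fgfr2 (chr7:130266809-130266908, minus) in alveolar ones. The Fgfr2 window lies inside the annotated gene (chr7:130162451-133123350), away from the upstream end of the annotation. Capitals mark the GC box GGGCGG on either strand.
Mst1r: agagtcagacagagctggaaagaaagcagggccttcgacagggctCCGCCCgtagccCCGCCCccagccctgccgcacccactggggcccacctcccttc
Fgfr3: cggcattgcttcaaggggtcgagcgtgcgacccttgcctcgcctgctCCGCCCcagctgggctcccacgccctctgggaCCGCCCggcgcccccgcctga
Mertk: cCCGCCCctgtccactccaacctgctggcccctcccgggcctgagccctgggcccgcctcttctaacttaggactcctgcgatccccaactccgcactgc
Fgfr2: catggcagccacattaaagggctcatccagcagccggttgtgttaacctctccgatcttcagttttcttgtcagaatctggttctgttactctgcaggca

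GC boxes were present in a window of 7 of the 8 genes, against 32.7% of all 32851 windows, and Fgfr2 was the gene without a match. The Fgfr2 window was also low in G and C (44% of its bases, with a median of 52.4% over all windows), while those of Igf1r and Met reached 77.6% and 74%. No window of these genes held a TATA box (TATAAA, present in 12.4% of all windows), 1 of the 8 genes, Fgfr3, had a CCAAT box (33.8%), and 1, Met, had an AP-1 site (TGANTCA, 6.75%), each searched on both strands. These counts, and that of GC boxes, are of genes, while the shares are of windows, and the 8 genes had 10 windows. A second window of Mst1r held no GC box, and a second window of Fgfr3 held no CCAAT box. Mst1r, higher in airway cultures, and Mertk, higher in alveolar ones, both held GC boxes, and Fgfr2, also higher in alveolar ones, held none. The part of these motifs in the expression differences was not tested.

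**Figure D1:**
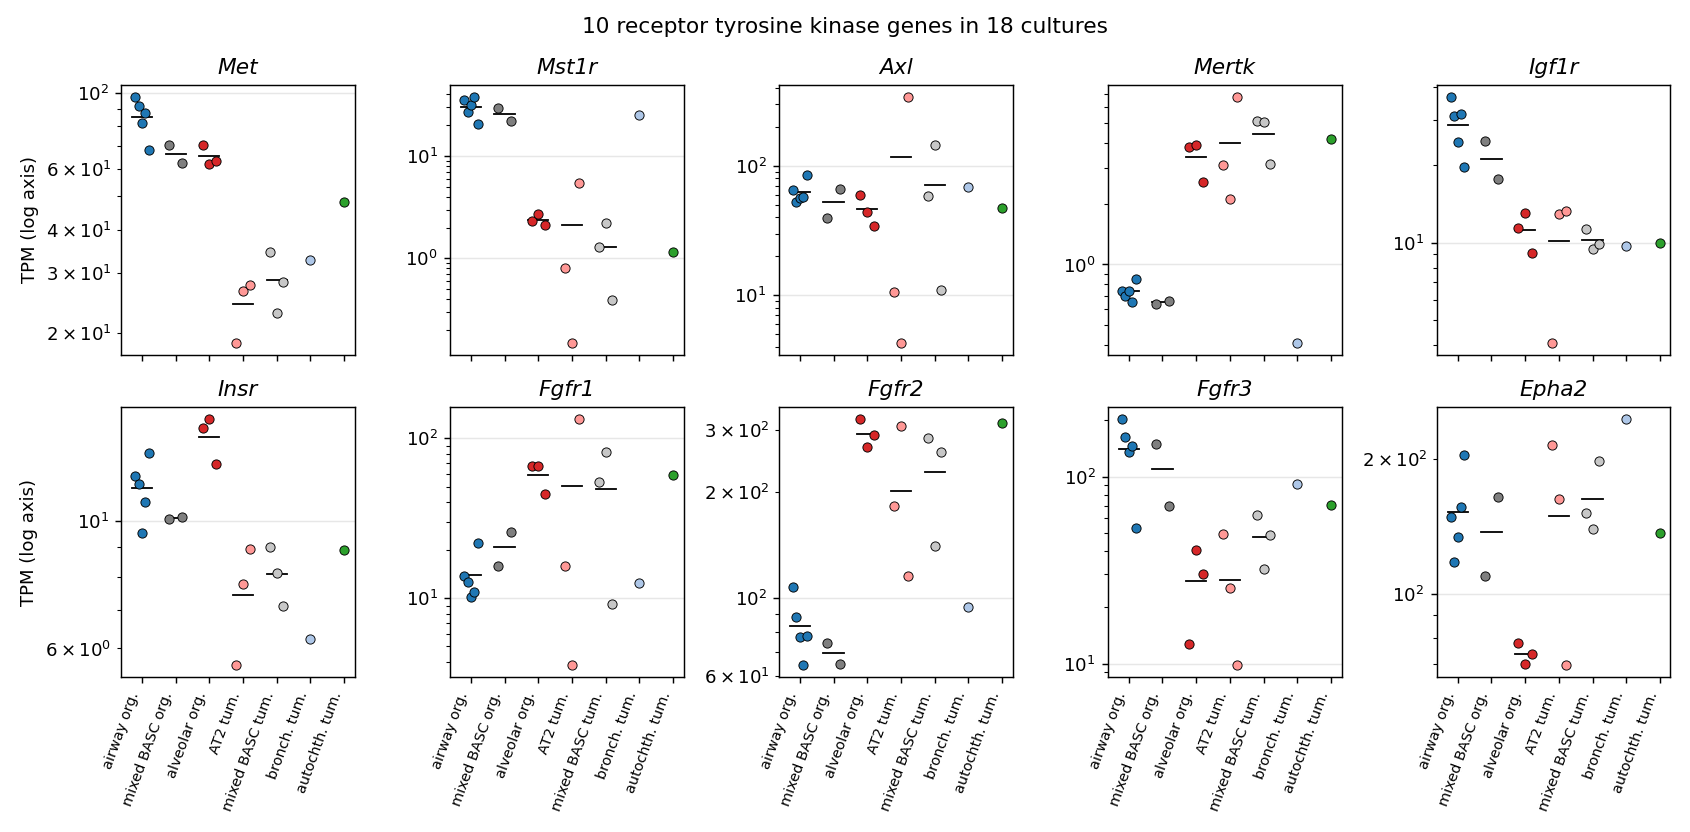
TPM on log axes of the 10 receptor genes, 1 panel for each gene, in the airway (n = 5), mixed BASC (n = 2) and alveolar (n = 3) organoids and in the AT2 (n = 3), mixed BASC (n = 3), bronchiolar BASC (n = 1) and autochthonous (n = 1) tumoroids. Points are cultures and bars are means. The 5 airway cultures lie above the 3 alveolar ones for Mst1r, Igf1r, Fgfr3 and Epha2 and below them for Mertk, Fgfr1 and Fgfr2.

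Airway and alveolar organoids were compared to ask which of these receptors go with the type of epithelium in culture. Of the 10 genes 8 were called different, 4 of them higher in airway cultures (Mst1r, Fgfr3, Igf1r and Epha2) and 4 lower (Mertk, Fgfr1, Fgfr2 and Insr). This comparison called 58.4% of 18362 genes tested, 30.5% of them higher in airway cultures and 27.9% lower, so a high share of calls is no property of the receptors. In bulk RNA, fewer cells of a type and less RNA per cell cannot be told apart. The groups did not overlap for the same 8 genes, where 54.5% of all genes tested did not. The median log2 fold change of the 10 was 0.31, beside 0.063 over all genes. Because the 5 airway cultures came from 3 populations and the 3 alveolar cultures from 2, the cultures of a population were also summed, and 6 of the 10 genes were then called. The calls lost were those of Insr (adjusted p = 0.0637) and Fgfr3 (adjusted p = 0.0564), which were also short of the threshold with Ad-Cre cultures only. Lineage and tissue overlap in this comparison, since 4 of the 5 airway cultures were tracheal.

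MET and RON, the product of Mst1r, are related receptors for hepatocyte growth factor and for macrophage-stimulating protein. Mst1r (ENSMUSG00000032584, GRCm38 chr9:107906873-107920383) was at 35.4, 26.9, 31.5, 37.6 and 20.7 TPM in the club Ad-GFP, club Ad-Cre, basal Ad-GFP, basal Ad-Cre and bronchiolar BASC cultures, and at 2.31, 2.74 and 2.11 TPM in the AT2 Ad-GFP, AT2 Ad-Cre and alveolar BASC cultures. Every airway culture therefore lay far above every alveolar culture. In CPM the means were 58.1 ± 14.5 (SD, n = 5) and 5.16 ± 0.344 (SD, n = 3), with a log2 fold difference of 3.49 (SE 0.25, adjusted p = 2.2e-05). The mixed BASC cultures, with 29.7 TPM (Ad-GFP) and 22.2 TPM (Ad-Cre), sat among the airway values.

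Met (ENSMUSG00000009376, chr6:17463800-17573980) ran from 68.2 to 97.1 TPM in airway and from 62.2 to 70.5 TPM in alveolar cultures, so that the groups overlapped. The fitted log2 fold difference was 0.25 (SE 0.12, adjusted p = 0.116), an interval of 0.00 to 0.50 at 2 SE to each side. The call depended on the bronchiolar BASC culture, the lowest of the airway ones in TPM, since without it Met was called higher in airway cultures (0.30, adjusted p = 0.0112). The ratio of Met to Mst1r TPM was 2.33 to 3.40 in airway and 22.7 to 30.5 in alveolar cultures.

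The TPM of Mst1r rests on the transcript length that the estimation software assigned in each culture, which was less even than for the other receptors. Its mean length ran from 2414 to 4717 bases over the 18 cultures, where the annotation holds 2 long transcripts of 4722 and 4717 bases and 2 short ones of 600 and 345 bases. The shorter one begins at 107915003, directly after a second RefSeq promoter window of Mst1r (chr9:107914753-107915002), inside the gene. The bronchiolar BASC tumoroid had the shortest mean length (2414 bases, from 877 counts), and AT2 tumoroids 1 and 2 had lengths of 4717 bases from 54 and 10 counts. The error of these isoform estimates is not given with the values, and CPM, which carries no length, was used for the Mst1r tests given here, while an alternative on log2(TPM + 1) carries it.

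AXL and MERTK belong to the TAM family, whose ligands GAS6 and protein S bridge the receptors to exposed phosphatidylserine. Mertk (ENSMUSG00000014361, chr2:128698956-128802894) was low throughout, at 0.74, 0.70, 0.74, 0.65 and 0.85 TPM in the club Ad-GFP, club Ad-Cre, basal Ad-GFP, basal Ad-Cre and bronchiolar BASC cultures and at 3.82, 3.89 and 2.56 TPM in the AT2 Ad-GFP, AT2 Ad-Cre and alveolar BASC cultures. All 3 alveolar cultures exceeded all 5 airway cultures. The log2 fold change was -2.42 (SE 0.17, adjusted p = 2.08e-05), from 1.57 ± 0.123 CPM (SD, n = 5) in airway and 8.42 ± 1.7 CPM (SD, n = 3) in alveolar cultures.

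Axl (ENSMUSG00000002602, chr7:25757273-25788705) overlapped, with 52.9 to 84.7 TPM in airway and 34.5 to 59.6 TPM in alveolar cultures. The fitted log2 fold difference was 0.36 (SE 0.2, adjusted p = 0.15), an interval from -0.04 to 0.76 at 2 SE. Without the AT2 Ad-GFP culture, the highest alveolar one, Axl was called higher in airway cultures (0.59, adjusted p = 0.0367).

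IGF1R and the insulin receptor share ligands of the insulin family and the IRS adaptors. Igf1r (ENSMUSG00000005533, chr7:67952827-68233668) was at 36.7, 30.9, 24.6, 31.5 and 19.7 TPM in the club Ad-GFP, club Ad-Cre, basal Ad-GFP, basal Ad-Cre and bronchiolar BASC cultures and at 11.3, 13.02 and 9.08 TPM in the AT2 Ad-GFP, AT2 Ad-Cre and alveolar BASC cultures. The lowest airway culture lay above the highest alveolar one (log2 fold change 1.21, SE 0.2, adjusted p = 0.00128). Insr (ENSMUSG00000005534, chr8:3122061-3279617) ran the other way by a small amount, with 59.3 ± 5.79 CPM in airway (SD, n = 5) and 81.1 ± 4.46 CPM in alveolar cultures (SD, n = 3), a log2 fold difference of -0.45 (SE 0.092, adjusted p = 0.0033). In TPM the Insr groups overlapped, from 9.52 to 13.1 and from 12.6 to 15.03. As a result, Igf1r exceeded Insr in every airway culture, by 1.499 to 3.06 times in TPM, and was below it in every alveolar culture, at 0.72 to 0.87 times.

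The FGF receptors differ in the ligands they accept, which alternative splicing of FGFR1, FGFR2 and FGFR3 also sets. Fgfr3 (ENSMUSG00000054252, chr5:33721674-33737068) was at 202, 162, 135, 146 and 53.1 TPM in the club Ad-GFP, club Ad-Cre, basal Ad-GFP, basal Ad-Cre and bronchiolar BASC cultures and at 12.7, 40.3 and 30.3 TPM in the AT2 Ad-GFP, AT2 Ad-Cre and alveolar BASC cultures. The bronchiolar BASC culture stood much closer to the alveolar cultures than the tracheal ones did. Over all airway cultures the log2 fold change was 2.09 (SE 0.48, adjusted p = 0.00603).

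Fgfr2 (ENSMUSG00000030849, chr7:130162451-133123350) was at 107, 88.1, 77.4, 64.5 and 77.9 TPM in the same 5 airway cultures and at 321, 267 and 289 TPM in the 3 alveolar ones. It was the highest of the 10 receptors in each alveolar organoid culture, with 45.6% to 51.5% of their summed TPM. The log2 fold change was -2.04 (SE 0.15, adjusted p = 2.27e-05), from 120 ± 20.9 CPM (SD, n = 5) in airway and 492 ± 50.5 CPM (SD, n = 3) in alveolar cultures.

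Fgfr1 (ENSMUSG00000031565, chr8:25513654-25575718) was at 13.8, 12.6, 10.1, 11.0 and 22.3 TPM in the same airway cultures and at 66.8, 66.9 and 44.7 TPM in the alveolar ones. Alveolar cultures were again higher with no overlap (log2 fold change -2.27, SE 0.24, adjusted p = 0.000109). The sum of the 3 genes ran from 153 to 323 TPM in airway and from 364 to 401 TPM in alveolar cultures, and its make-up differed more than its size. Fgfr3 made up 34.7% to 65.9% of that sum in airway and 3.17% to 10.8% in alveolar cultures, while Fgfr2 made up 29.2% to 50.8% and 71.4% to 80.2%.

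**Figure D2:**
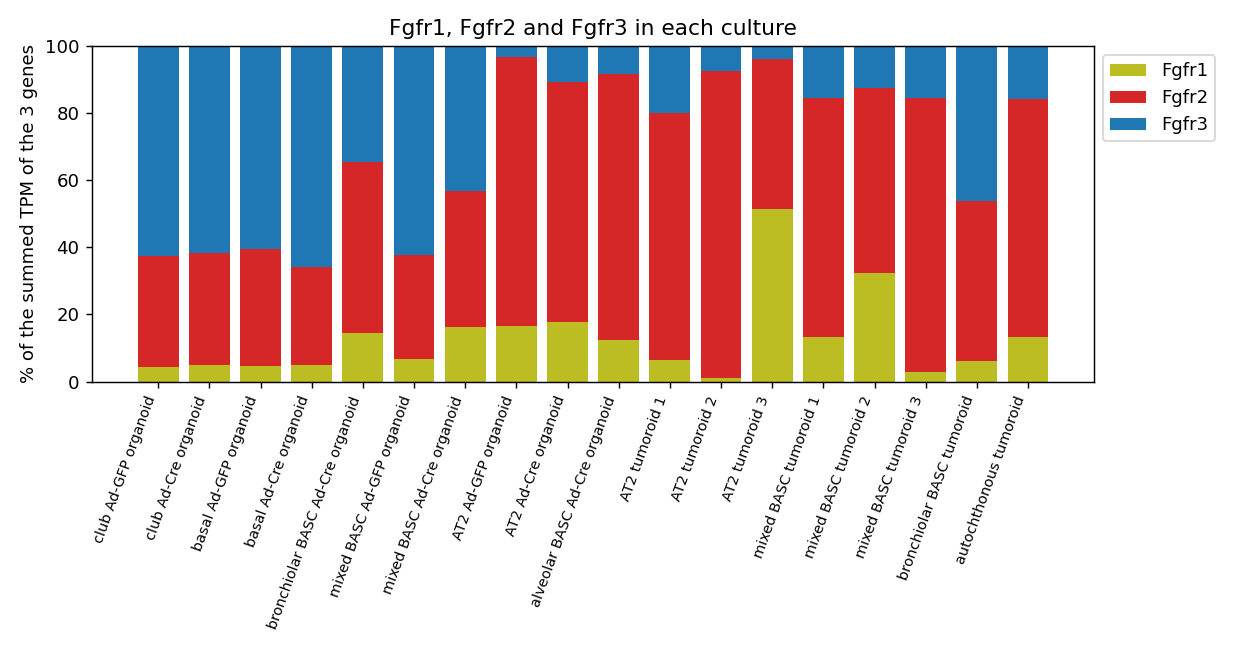
Share of Fgfr1, Fgfr2 and Fgfr3 in their summed TPM (percent, bars add to 100) in each of the 18 cultures, 1 culture to a bar with no error bar. Fgfr3 is the widest part in the 4 tracheal cultures and Fgfr2 in the 3 alveolar organoids, and Fgfr1 reaches 51.3% in AT2 tumoroid 3.

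Epha2 encodes an Eph receptor that binds ephrin-A ligands on neighbouring cells. Epha2 (ENSMUSG00000006445, chr4:141301240-141329384) was at 149, 118, 134, 156 and 205 TPM in the club Ad-GFP, club Ad-Cre, basal Ad-GFP, basal Ad-Cre and bronchiolar BASC cultures and at 77.9, 70.03 and 73.5 TPM in the AT2 Ad-GFP, AT2 Ad-Cre and alveolar BASC cultures. The airway values were all higher (log2 fold change 0.90, SE 0.16, adjusted p = 0.00162).

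Fibroblast markers moved with this comparison. Of the 10 fibroblast markers 9 were tested and 8 were called lower in airway cultures, with a median log2 fold change of -2.01 over the 9, and their summed TPM did not overlap between the groups (873 to 1709 and 2181 to 4005). Mertk, Fgfr1, Fgfr2, Insr and most ligand genes shared that direction, and their part in these results was not tested. Endothelial markers, at a summed TPM of 3.39 to 4.51 in airway and 15.9 to 17.1 in alveolar cultures, were called lower in airway cultures for 2 of the 4 tested. Immune markers, at a summed TPM of 32.8 to 107 and 24.3 to 24.6, had 2 of 4 called higher and 2 lower. Of all genes tested, 30.5% were called higher and 27.9% lower in airway cultures.

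The ligand genes for these receptors were mostly lower in airway cultures, with 13 of 17 called lower and 2 called higher. Over all genes tested, these shares were 27.9% and 30.5%. The median log2 fold change of the ligand genes was -2.05, beside 0.063 over all genes. Igf2 was at 3.97 to 7.92 TPM in airway and 136 to 251 TPM in alveolar cultures (log2 fold change -5.00, adjusted p = 1.24e-05), Fgf10 at 0.55 to 1.79 and 15.6 to 39.7 TPM (-4.97, adjusted p = 5.86e-05), and Igf1 at 1.10 to 2.45 and 13.4 to 30.3 TPM (-3.94, adjusted p = 5.62e-05). Lower as well were Gas6 (log2 fold change -2.71), Pros1, which encodes protein S (-2.32), Fgf7 (-2.17) and Hgf (-2.04). Efna1, which encodes an ephrin-A ligand, overlapped between the groups (-0.27, adjusted p = 0.3).

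The 2 called higher were Mst1 and Efna5 (log2 fold change 0.51), the latter named after its value was seen. Mst1 encodes the ligand of RON. It was at 35.4, 32.8, 32.4, 32.9 and 13.8 TPM in the 5 airway cultures and at 0.78, 1.36 and 3.93 TPM in the 3 alveolar ones. The log2 fold change was 3.65 (SE 0.62, adjusted p = 0.00133). Mst1 and its receptor gene Mst1r were therefore both higher in airway cultures.

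The background for the lists below is again 30.5% called higher and 27.9% lower in airway cultures over all genes tested. Among 18 genes for proteins that process or bind these ligands 6 were called higher and 7 lower in airway cultures (median log2 fold change -0.27). The largest changes were those of Igfbp6 (-3.68), the IGF-binding protein protease Pappa (-3.44) and Igfbp4 (-3.26), all lower. Among 19 adaptors and relays 1 was called higher, the ubiquitin ligase gene Cblb (named after its value was seen), and 5 lower (median -0.08), led by the insulin receptor substrate Irs1 (-1.65), the adaptor Shc1 (-1.10) and the PI3K catalytic subunit Pik3ca (-0.44). Of 29 other receptor tyrosine kinases tested out of 37 listed, 10 were called higher and 14 lower (median -0.31). The largest were Ros1, at 0 to 0.18 TPM in airway and 14.1 to 19.8 TPM in alveolar cultures, Epha3, at 0.01 to 0.04 and 0.64 to 2.34 TPM, and Kit, at 2.72 to 6.48 and 0.07 to 0.13 TPM.

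**Figure D3:**
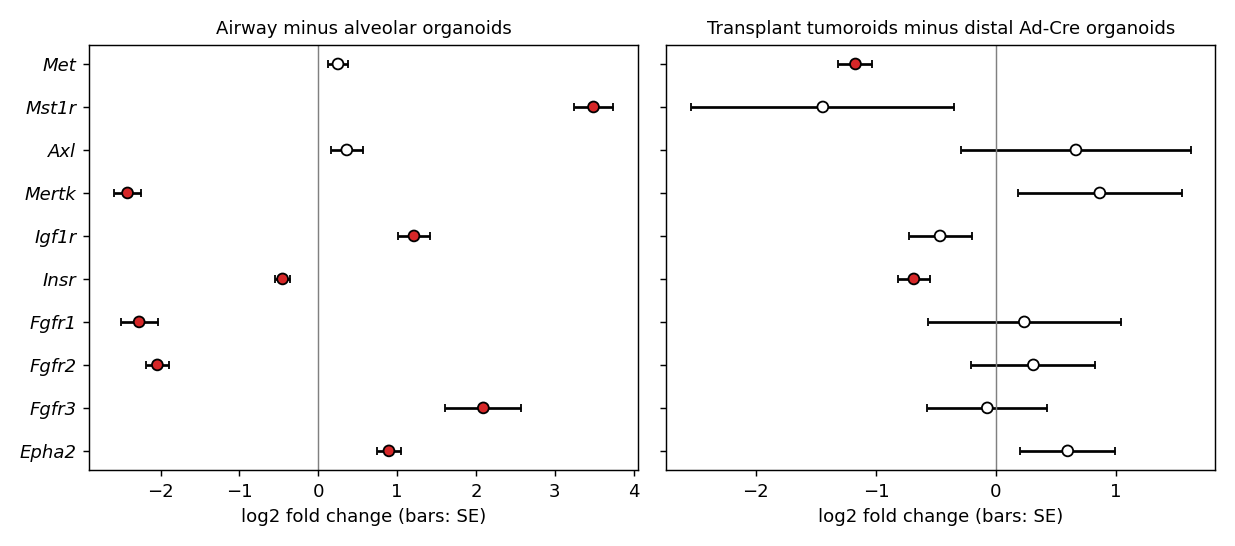
Log2 fold changes of the 10 receptor genes by edgeR, with bars of 1 SE, for 5 airway minus 3 alveolar organoid cultures (left) and 7 transplant tumoroids minus 4 distal Ad-Cre organoid cultures (right). Filled points passed an adjusted p of 0.05, which were 8 genes on the left and Met and Insr on the right.

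Ad-Cre and Ad-GFP cultures were compared within 4 populations (club, basal, AT2 and mixed BASC) to ask whether activation of mutant EGFR moved the other receptors in culture. No receptor was called, with 0 of 10, and neither was any of the 17749 genes tested (0% called by edgeR, 350 with an unadjusted p below 0.05, and 5 called by DESeq2, none of them a receptor gene of this set). Only Fgfr2 among the 10 had an unadjusted p below 0.05.

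Fgfr2 was at 148 and 133, 119 and 96.4, 533 and 438, and 109 and 98.8 CPM with Ad-GFP and Ad-Cre in the club, basal, AT2 and mixed BASC pairs. The log2 differences between Ad-Cre and Ad-GFP ran from -0.30 to -0.14. The fitted log2 fold change was -0.23 (SE 0.072, adjusted p = 0.994), which fails the correction over all genes. For Insr the log2 differences ran from 0.02 to 0.12 (fitted 0.05, SE 0.06, adjusted p = 0.994).

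The widest differences within pairs went in opposite directions in the AT2 and mixed BASC cultures. Fgfr3 was 26.2 CPM with Ad-GFP and 77.7 CPM with Ad-Cre in AT2 cultures, and 264 and 141 CPM in mixed BASC cultures, log2 differences of 1.57 and -0.91. For Axl these were -0.52 and 0.84, and for Epha2 -0.22 and 0.65. Fgfr1 differed by -0.07 in the AT2 pair and by 0.87 in the mixed BASC pair, in which the summed TPM of fibroblast markers was 894 with Ad-GFP and 2054 with Ad-Cre. The part of the support cells in that pair was not tested. The widest difference in the tracheal pairs was that of Mst1r in club cultures (-0.34).

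Intervals of 2 SE around the fitted values ran from -0.23 to 0.10 for Met, from -0.07 to 0.17 for Insr and from -0.32 to 0.23 for Igf1r, and from -0.66 to 0.90 for Fgfr3. The interval was widest for Fgfr3. Fitted separately and without a population block, so that the distal fit set alveolar beside airway-like cultures within each virus, the distal cultures (4 Ad-Cre and 2 Ad-GFP, 18866 genes) and the tracheal cultures (2 and 2, 17234 genes) gave 0 calls, with 238 and 279 genes at an unadjusted p below 0.05 and 0 of the 10 receptors among them. The test of a difference between the distal and tracheal effects gave 0 calls among 17749 genes (852 at an unadjusted p below 0.05, with 0 receptors).

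**Figure D4:**
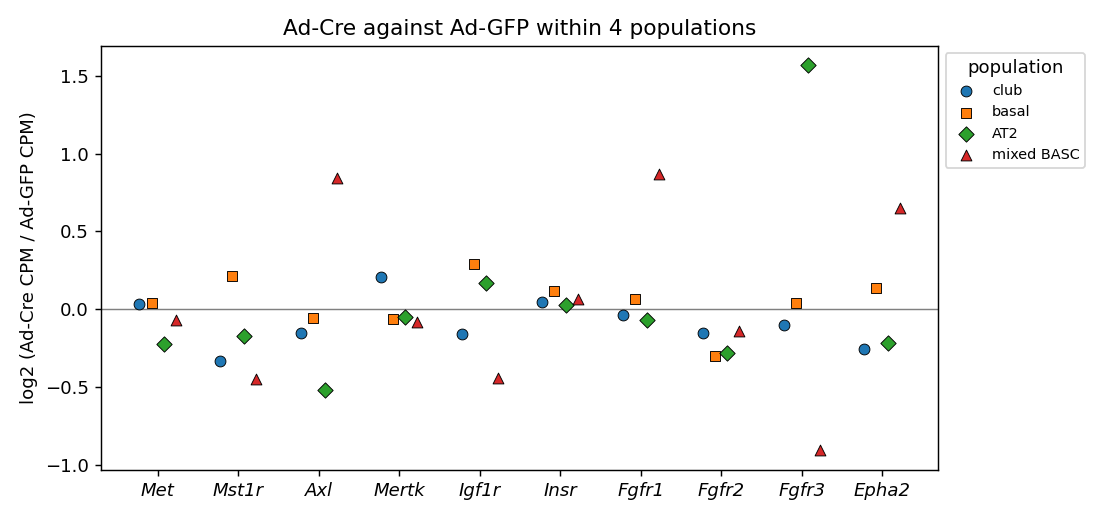
Log2 ratio of Ad-Cre to Ad-GFP CPM for the 10 receptor genes within the club, basal, AT2 and mixed BASC pairs, 1 point for each pair. Fgfr2 runs from -0.30 to -0.14, and Fgfr3 from -0.91 in mixed BASC to 1.57 in AT2 cultures.

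The 7 transplant tumoroids were compared with the 4 distal Ad-Cre organoid cultures to ask how the receptors stood after growth in vivo. Met and Insr were called lower in tumoroids and no receptor was called higher, 2 of 10 in all, where 19.6% of 16139 genes were called and 8.77% were called lower. The groups did not overlap for the same 2 genes, as for 15.6% of all genes. The median log2 fold change of the 10 was 0.08 (-0.002 over all genes). All tumoroid libraries were made and sequenced on another platform (BGI, DNBSEQ) than the organoid libraries (TruSeq, HiSeq), so platform and transplantation cannot be told apart.

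Met ran from 18.8 to 34.4 TPM in transplant tumoroids, with a median of 27.7, and was at 62.2, 62.6, 63.5 and 68.2 TPM in the organoids from AT2 cells, mixed BASCs, the alveolar subclone and the bronchiolar subclone. Every tumoroid thus lay below every organoid culture, and the autochthonous tumoroid, at 48.1 TPM, lay between them. In CPM the means were 107 ± 19.5 (SD, n = 7) and 242 ± 9.56 (SD, n = 4), a log2 fold difference of -1.17 (SE 0.14, adjusted p = 0.00087). Insr was at 42.9 ± 4.62 CPM (SD, n = 7) and 68.9 ± 12 CPM (SD, n = 4), a log2 fold difference of -0.68 (SE 0.13, adjusted p = 0.00597).

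With the cell of origin as a block Met stayed called and Insr did not (adjusted p = 0.0516). With AT2 tumoroids and alveolar organoids only, the log2 fold changes were -1.26 for Met and -0.79 for Insr, and neither was called (adjusted p = 0.103 and 0.149), in an edgeR fit that called 0 of 16013 genes, with 3109 at an unadjusted p below 0.05.

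Axl and Fgfr1 varied more among the tumoroids than between the groups. Axl ran from 4.32 TPM in AT2 tumoroid 2 to 338 TPM in AT2 tumoroid 3, with 146 TPM in mixed BASC tumoroid 2 and values of 10.7 to 68.1 TPM in the other 4. Fgfr1 had the same lowest and the same highest culture, at 3.83 and 132 TPM, and was at 82.4 TPM in mixed BASC tumoroid 2. In AT2 tumoroid 3 Axl was the highest of the 10 receptors, with 46.6% of their summed TPM. Fitted log2 fold changes against organoids were 0.67 for Axl (SE 0.95, adjusted p = 0.663) and 0.24 for Fgfr1 (SE 0.81, adjusted p = 0.866), and both turned negative without AT2 tumoroid 3 (-0.11 and -0.32).

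The fibroblast markers followed the same order at both ends. Their summed TPM was highest in AT2 tumoroid 3 (4676) and mixed BASC tumoroid 2 (2094) and lowest in AT2 tumoroid 2 (202), and Epcam, the epithelial marker used for sorting, was lowest in AT2 tumoroid 3 (30.8 TPM, with 584 TPM as the highest transplant tumoroid). Among organoids the picture was mixed. The AT2 Ad-GFP culture had 4005 TPM of fibroblast markers and 59.6 TPM of Axl, where the tracheal cultures had 873 to 947 and 52.9 to 64.7. The mixed BASC pair was higher in both with Ad-Cre (894 and 2054 TPM of fibroblast markers, 39.3 and 66.5 TPM of Axl), and the bronchiolar BASC culture had the highest Axl of the 10 organoid cultures (84.7 TPM) with the highest fibroblast sum of the airway cultures (1709 TPM). The part of support cells in these values was not tested. Without both tumoroids that were highest in fibroblast markers, Met and Insr were still the receptors called (2 of 10).

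**Figure D5:**
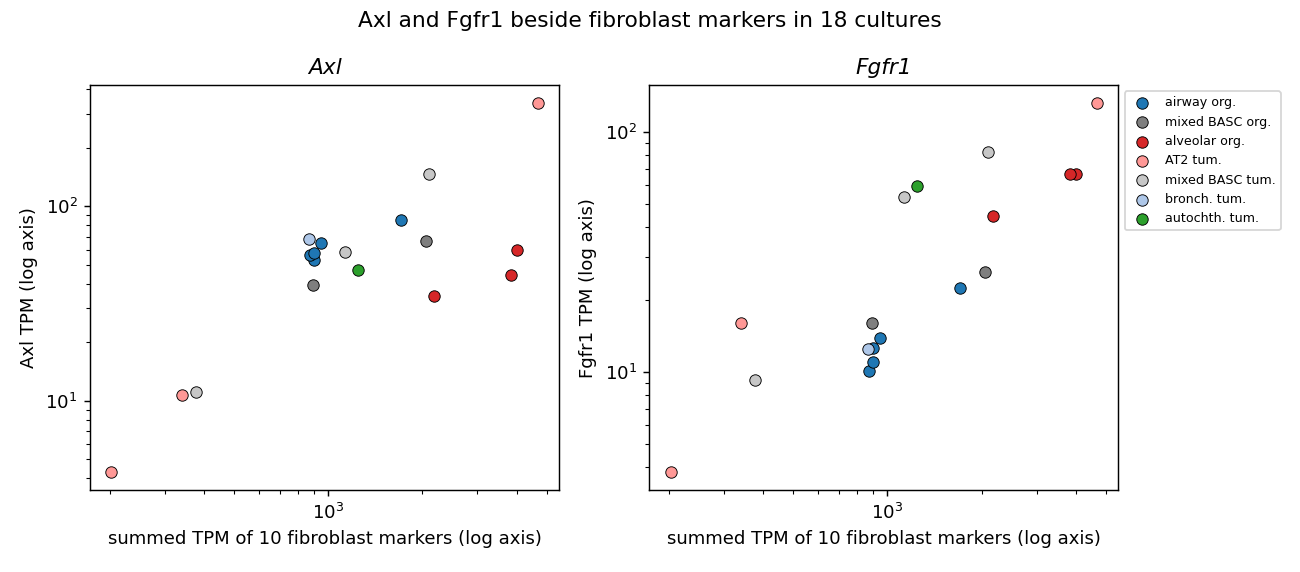
TPM of Axl (left) and Fgfr1 (right) against the summed TPM of 10 fibroblast markers, both axes logarithmic, with 1 point for each of the 18 cultures, coloured by group. AT2 tumoroid 3 is highest on both axes in both panels and AT2 tumoroid 2 is lowest.

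The remaining receptors overlapped between tumoroids and organoids. Fgfr2 ran from 94.4 to 307 TPM in transplant tumoroids with a median of 182 (log2 fold change 0.31, SE 0.52), Fgfr3 from 9.87 to 91.5 TPM (-0.07, SE 0.5), Epha2 from 69.7 to 245 TPM (0.60, SE 0.4), Mertk from 0.41 to 6.74 TPM (0.86, SE 0.68) and Igf1r from 4.09 to 13.3 TPM (-0.47, SE 0.26). Adjusted p-values of these 5 lay between 0.238 and 0.937. Mst1r ran from 0.15 to 25.3 TPM (-1.44, SE 1.1, adjusted p = 0.386) and was called lower without the bronchiolar BASC tumoroid (-2.94, adjusted p = 0.0309). The organoid group then still held the mixed and bronchiolar BASC cultures (22.2 and 20.7 TPM) beside the AT2 and alveolar BASC ones (2.74 and 2.11 TPM). The part of this make-up in the Mst1r difference was not tested.

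Of the ligand genes, 3 of 17 were called lower in tumoroids and 0 higher. Over all genes tested, 8.77% were called lower and 10.8% higher. The 3 ligand genes were Igf1 (log2 fold change -3.14, adjusted p = 0.0295), Fgf2 (-2.04, adjusted p = 0.00272) and Fgf9 (-1.92, adjusted p = 0.0131). Fgf9 was low in both groups, at 0.39 to 0.68 TPM in organoids and 0.04 to 0.30 TPM in tumoroids, which had 1 to 7 counts. Hgf (-0.97), Fgf7 (-1.35), Fgf10 (-1.77), Gas6 (-0.25), Pros1 (-0.61), Igf2 (-0.51), Mst1 (-0.65) and Efna1 (0.01) were not called. Of 18 processing and binding genes 2 were called, Igfbp2 (-1.89) and Igfbp7 (-1.69), both lower. Among 19 adaptors and relays Grb2 (0.41) and Src (0.56) were called higher and 4 genes lower, namely the ubiquitin ligase genes Cbl (-1.12) and Cblb (-0.78), which turn receptors over, the PI3K regulatory subunit gene Pik3r1 (-0.94) and Pik3ca (-0.55), with Grb2, Src and Pik3ca named after their values were seen. Among 26 other receptor tyrosine kinases tested 1 was called, Ntrk2 (-2.24, adjusted p = 0.00251), which was lower. Its level was low, at 2.29 to 3.14 TPM in organoids and 0.23 to 1.27 TPM in tumoroids. Of 9 fibroblast markers tested 2 were called lower in tumoroids, Lum (-2.05) and Postn (-2.59), which were named after their values were seen. Among markers of other cell types, the endothelial gene Pecam1 was called higher (log2 fold change 2.61, adjusted p = 0.0291), from 0.14 to 0.38 TPM in organoids and from 0.28 to 3.86 TPM in tumoroids, and was 1 of 3 endothelial markers tested. The summed TPM of the endothelial markers was 4.49 to 16.2 in organoids and 7.61 to 43 in tumoroids. Of 3 ciliated markers tested 2 were called lower, Tppp3 (-2.35) and Rsph1 (-3.07), also named after their values were seen. The part of these cell types in the receptor results was not tested.

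The bronchiolar BASC tumoroid was set against the other 6 transplant tumoroids without a test, as it was a single culture. A gene was called when its CPM lay outside the range of the 6 and at least 2-fold from their mean, which held for 16.3% of 14162 genes, 8.13% higher and 8.17% lower. By this rule 4 of the 10 receptors were called, Mst1r and Fgfr3 higher and Mertk and Fgfr2 lower. Mst1r was at 39.2 CPM with a range of 0.47 to 7.15 CPM in the 6, Fgfr3 at 192 with a range of 14.8 to 108, Mertk at 1.03 with a range of 5.01 to 15.8, and Fgfr2 at 167 with a range of 187 to 578. The Fgfr2 call was lost when AT2 tumoroid 2, the highest in Fgfr2, was left out, because the difference was then below 2-fold (log2 difference -0.98).

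These 4 directions are those of airway minus alveolar organoids. The bronchiolar tumoroid was also highest among transplant tumoroids in Epha2 (245 TPM) and in the RON ligand gene Mst1 (27.9 TPM, with 0.77 to 2.53 TPM in the other 6), while Fgfr1, at 29.0 CPM, lay inside the range of the others (9.40 to 256 CPM). Igf1r, called higher in airway organoids, was at 28.3 CPM beside a mean of 26.9 ± 8.51 CPM in the 6 (SD). Insr, called lower in airway organoids, was at 38.1 CPM, inside the range of the 6 (36.9 to 48.3 CPM).

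Genes whose log2 CPM ran most like that of each receptor over the 18 cultures were listed as a description, with Pearson's r and no test. The closest pairs were those of Fgfr1 with Bgn and Adamts2, which encode a matrix proteoglycan and a procollagen protease (r = 0.993 and 0.992). Axl was followed by St3gal2 (0.977) and Map4 (0.968), Mst1r by Ifitm1 (0.972) and Aptx (0.968), Fgfr2 by Zdhhc3 (0.970), and Mertk by Epb41l1 (0.970) and Serpina3n (0.968). For Met they were Cep350 and Rapgef6 (0.961 and 0.960), for Igf1r Dhx8 and Irak4 (0.953 and 0.926), for Fgfr3 the epithelial transcription factor gene Klf5 and Limk2 (0.953 and 0.936), for Insr Xrn1 and Ddx6 (0.950 and 0.945), and for Epha2 Ctbp2 and the ERK phosphatase gene Dusp6 (0.918 and 0.913). The 18 points share platforms, depth and lineages.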

How the data were processed

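RNA from 10 organoid and 8 tumoroid cultures had been sequenced, 1 library for each. According to the submitters' processing notes, Trimmomatic 0.39, STAR 2.6.1d and RSEM 1.3.2 were used with GRCm38, and for each gene the authors deposited an expected count and a TPM estimated by RSEM, with its transcript length. Genes were named with GENCODE vM21 (46091 matched, 512 not).

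Expected counts were rounded here and tested in R 4.3.3 with edgeR 4.0.16 (filterByExpr, TMM, quasi-likelihood test), with Benjamini-Hochberg adjustment over all genes tested and a threshold of 0.05. Adjusted p values come from edgeR unless another tool is named. Cre and GFP cultures of 4 populations were compared with population as a block, because sorted cells had been split between the viruses, and so was the difference between distal and tracheal effects. The separate distal and tracheal fits had no block. Airway with alveolar cultures and tumoroids with organoids were fitted without a covariate, and mixed BASC organoids were left out of the former. Replicates are different populations, cultures of a population with either virus, or tumoroids. Between airway and alveolar organoids, the Ad-GFP and Ad-Cre cultures of a population were counted as separate samples. Among the distal Ad-Cre organoids, the mixed, alveolar and bronchiolar BASC cultures all came from sorted BASCs. The p values therefore measure the spread between cultures, which lies in part within a population. Tumoroids that share a label number were counted as separate samples. No sample pair held identical values.

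The 10 receptors are named throughout, as are 9 ligands, up to 3 genes with the largest change among those called in each pathway list and comparison, and for each receptor the 2 best correlated genes whose average log2 CPM was 3 or more, of which 1 is not reported here. The members and lists were chosen with earlier results of these data known. Alternatives were DESeq2 1.42.0, its size factors, other filters, limma 3.58.1 on log2(TPM + 1), left-out cultures and other sample sets. Another 2 (cultures of a population summed, and 2 tumoroids left out) were chosen after the data were seen. The scripts were tested on simulated data. Figures were drawn with matplotlib 3.10.9.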

Additional observations from a re-analysis of the deposited data

Results flagged for a closer look

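Within each of 5 groups of 4 to 7 cultures, the CPM of the 10 receptors was examined for a culture far from the rest by Dixon's criterion, and 9 of 50 cases passed it, where chance gives about 1 in 20. Most of these cases follow the make-up of the group. In the 4 Ad-GFP cultures the AT2 culture stood apart for Mst1r (5.44 CPM, others 59.2 to 69.8), Mertk (9.40, others 1.49 to 1.55), Fgfr1 (135, others 19.5 to 26.9) and Fgfr2 (533, others 109 to 148), and in the 4 matched Ad-Cre cultures the AT2 culture stood apart for Mertk (9.10, others 1.46 to 1.72) and Fgfr2 (438, others 96.4 to 133). The AT2 cultures were the alveolar ones in both groups.

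In the other cases a bronchiolar BASC culture stood apart. The bronchiolar BASC organoid was high among the 5 airway cultures for Axl (188 CPM, others 119 to 132) and Fgfr1 (39.5 CPM, others 19.5 to 23.7), and its summed fibroblast marker level was also the highest of the 5 (1709 TPM, others 873 to 947). Its part in both values was not tested. The bronchiolar BASC tumoroid, the only culture of airway lineage among the 7 transplant tumoroids, was high among them for Mst1r (39.2 CPM, others 0.473 to 7.15).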

How the results depend on the processing

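The count of receptors called between airway and alveolar organoids was 8 and stayed between 6 and 9 under 17 alternatives, and none of the 10 receptors reversed. Leaving out single cultures gave 8 to 9. In the Ad-Cre comparison the count stayed at 0 in all 12, and in the bronchiolar tumoroid it was 3 to 4 in 9. Between tumoroids and organoids it was 2 and stayed at 2 to 3 without single cultures, but fell to 1 with cell of origin as a block and to 0 with alveolar origin only, which also leaves fewer samples. No receptor that was called reversed. Among those not called, log2 fold changes with Ad-Cre turned in tracheal cultures only for Met (0.027), Axl (-0.12), Mertk (0.065), Igf1r (0.040), Fgfr3 (-0.050) and Epha2 (-0.058), in distal cultures only for Fgfr1 (-0.086) and Fgfr3 (-0.62), for Fgfr3 without the population block (-0.16), and for Mertk without a filter (0.0041). Without single pairs they ran from -0.25 to 0.21 for Axl, -0.074 to 0.020 for Mertk, -0.16 to 0.10 for Igf1r, -0.013 to 0.30 for Fgfr1, -0.32 to 0.49 for Fgfr3 and -0.11 to 0.18 for Epha2. Against organoids, tumoroid values turned for Axl (-0.48) and Fgfr1 (-0.56) on the log2(TPM + 1) scale, and without the 2 tumoroids highest in fibroblast markers for Axl (-0.81), Fgfr1 (-0.93) and Fgfr3 (0.22). With alveolar origin only Fgfr1 (-0.064) and Fgfr2 (-0.22) turned, with tumoroids of a shared label number summed Fgfr1 (-0.013) and Fgfr3 (0.13), and with the autochthonous tumoroid added Fgfr3 (0.016). Without single cultures the values ran from -0.11 to 0.91 for Axl, -0.32 to 0.61 for Fgfr1 and -0.37 to 0.17 for Fgfr3. Over all genes, 10725 calls between airway and alveolar cultures became 5374 with Ad-Cre only, 5995 with populations summed and 6292 with tumoroids added, and 3167 calls in tumoroids became 1157 with the origin block, 1973 without the bronchiolar BASC organoid and 5630 by DESeq2. The cause was not tested. The tumoroid libraries had the fewest reads, and Mst1r rested on 10 to 115 counts in 6 of the 7 transplant tumoroids.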

Other observations

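The autochthonous tumoroid entered none of the main comparisons. It had 313 TPM of Fgfr2, above each of the 7 transplant tumoroids (94.4 to 307), and 48.1 TPM of Met, above each of them as well (18.8 to 34.4). Its Mst1r (1.15 TPM), Mertk (4.19), Igf1r (9.93), Insr (8.92), Axl (47.1), Fgfr1 (59.3), Fgfr3 (70.3) and Epha2 (137) lay inside their ranges, as did its summed fibroblast marker level (1248 TPM). It was sequenced on the tumoroid platform without a transplant and was a single culture, so no test was made.

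The mixed BASC organoids, which held both kinds of organoid by morphology, had airway-like levels of Mst1r (29.7 and 22.2 TPM with Ad-GFP and Ad-Cre), Mertk (0.64 and 0.66) and Fgfr2 (74.5 and 64.9). The 3 mixed BASC tumoroids were at 0.39 to 2.21 TPM of Mst1r, 3.13 to 5.12 TPM of Mertk and 140 to 285 TPM of Fgfr2. With 2 organoid cultures of different virus and another platform, this difference was not tested.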
